A study of Canis lupus familiaris with 4 samples.

Results

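The genes described here are regulators of fat cell formation and products of fat cells, measured in mesenchymal stromal cells (MSCs) from canine adipose tissue. They were chosen by symbol, as 10 named genes: the transcription factors CEBPB, CEBPD, PPARG and CEBPA, the lipid handling genes FABP4, LPL, PLIN2 and PNPLA2, and the secreted products RBP4 and ADIPOQ. Of these 10 genes, 6 were found under their symbol among the 30951 genes of the deposited table, namely CEBPB, PPARG, LPL, PLIN2, PNPLA2 and RBP4. CEBPA, CEBPD, FABP4 and ADIPOQ were not analysed here. The samples were 4 untreated primary cultures, 1 from each of 4 dogs, grown in DMEM with 10% fetal bovine serum and harvested 48 h after seeding in multiwell plates. Each gave 1 library of total RNA depleted of ribosomal RNA. The labels used here give no breed, sex, age, passage or fat depot and no differentiated or otherwise treated culture, so there is 1 group and no contrast between conditions, and with 1 culture per dog a difference between dogs includes differences between cultures and libraries.

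Fat cells form from stromal precursors through a cascade of transcription factors. In the textbook account, C/EBPβ and C/EBPδ appear first and switch on PPARγ and C/EBPα, which maintain each other and activate the genes of the mature adipocyte. PPARγ binds DNA as a dimer with a retinoid X receptor. Among its targets are genes for taking up fatty acids, for coating the lipid droplet and for secreted adipokines such as adiponectin. Cultured stromal cells are usually kept in the precursor state until an inducing cocktail is added.

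Each library held 7474011 to 22411268 reads assigned to genes, with the fewest in dog 4. Detection required reads in 2 or more of the 4 libraries. By this filter 17200 genes were detected, including all 6 measured genes of the set. The level of a gene is its deposited log2 value minus the median over the detected genes of the same library, given as mean ± SD over n = 4 dogs. A gene was called above or below when limma's moderated test against a distance of 1 log2 unit gave a Benjamini-Hochberg adjusted p under 0.05 over all detected genes. Where a dog was left out, detection and the median were taken anew over the remaining libraries. This alone shifted levels, by a median of -0.25, -0.25, -0.16 and -0.24 without dogs 1 to 4. All 8 stromal markers examined, among them COL1A1, PDGFRA and THY1, were above, with 89544 to 129919 counts per 1000000 assigned reads (CPM) in sum. None of 7 measured markers of mature adipocytes was above, and their sum was 7.76 to 20.5 CPM. The corresponding sums were 11.02 to 24.99 CPM for 9 endothelial markers, 6.25 to 21.1 CPM for 10 markers of macrophages and monocytes and 0 to 21.2 CPM for 3 mesothelial markers, with none above. PECAM1, TIE1 and EMCN had 0 reads in all dogs, as did CD163, AIF1, LYZ and SPI1. Other markers of these lists did have reads. In dogs 1 to 4 the endothelial markers VWF and KDR had 380, 62, 214 and 12 and 95, 65, 76 and 34 reads. The macrophage marker CSF1R had 103, 247, 289 and 48. These genes and the endothelial marker ERG were neither above nor below. Pericyte genes were present, with 2 of 5 above and sums of 348, 555, 416 and 949 CPM in dogs 1 to 4, though RGS5 had 0 reads. In bulk RNA, fewer cells that express a gene and less of its RNA per cell cannot be told apart.

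The secreted carrier RBP4, the droplet coat gene PLIN2, the early regulator CEBPB and the lipase gene PNPLA2 were above the median gene of their libraries, while the lipase gene LPL was close to absent. PPARG was present at an intermediate level in dogs 1 to 3 and lower in dog 4. Among the 6 genes measured, 4 were called above, 1 below and 1 neither. Over all 17200 tested genes, 33.3% were above, 35.8% below and 30.9% neither. Reads per gene also scale with transcript length, which was not used here, so a level compares a gene with itself between dogs and not the genes of the set with each other. The calls against the median gene and the order of genes within a list carry the same dependence on length.

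**Figure D1:**
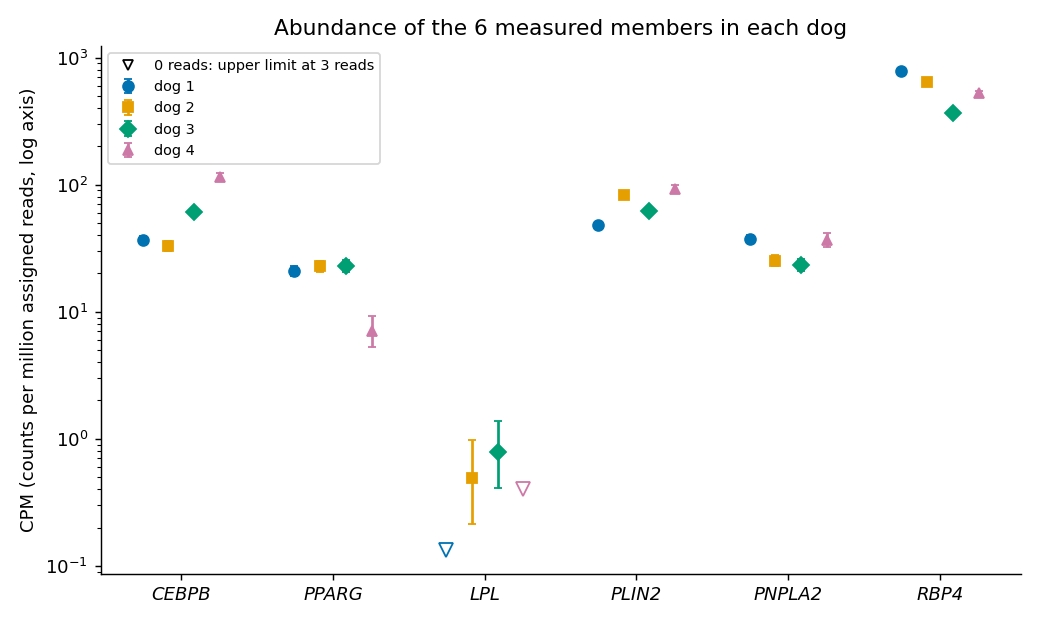
Abundance of the 6 measured genes in CPM (log axis) in each of the 4 dogs, with 95% Poisson intervals that cover counting error only. Open triangles mark 0 reads and stand at the limit that 3 reads would give. PPARG in dog 4, at 7.09 CPM, and LPL, under 1 CPM in each dog, stand apart.

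The regulator CEBPB, which encodes C/EBPβ, was above the median detected gene and had the largest SD between dogs of the set. Its reads numbered 821, 535, 924 and 864 in dogs 1 to 4, which is 36.6, 32.9, 60.8 and 116 CPM. Dog 4 had the highest value although its library was the smallest, and dogs 1 and 2 had the lowest. Its level was 2.42 ± 0.84 (limma, Benjamini-Hochberg adjusted p = 0.000378, above 1 in 4 of 4 dogs). After normalization dog 4 held 3.80 times the reads of dog 2, at 1731 against 456 normalized reads. Without dog 4, and with the median taken anew, the level was 1.80 and CEBPB was still above.

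PPARG, the nuclear receptor at the centre of the cascade, was steady in 3 dogs and lower in the last. It had 467, 370, 347 and 53 reads in dogs 1 to 4, or 20.8, 22.8, 22.8 and 7.09 CPM. The 95% Poisson interval in dog 4, 5.31 to 9.28 CPM, lay under the lowest bound of the other dogs, 19.0 CPM, and these intervals cover counting error only. The level was 1.17, 1.17 and 1.12 in dogs 1 to 3 and -0.24 in dog 4, so that the normalized reads of the highest dog were 2.97 times those of the lowest. Dog 4 stood apart from the other 3 by Dixon's ratio, as 1 library did for 5.36% of detected genes. The mean level of 0.81 ± 0.69 was neither above nor below (limma, Benjamini-Hochberg adjusted p = 0.955, above 0 in 3 of 4 dogs). Library depth moves with this difference, dog 4 being the shallowest. With all libraries thinned to 7474011 reads, PPARG kept 163, 185 and 168 reads in dogs 1 to 3 against 53 in dog 4, and CEBPB 292, 255 and 462 against 864.

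Between dogs, the ratio of 2 genes does not depend on their lengths. CEBPB held 1.76, 1.45 and 2.66 times the normalized reads of PPARG in dogs 1 to 3 and 16.3 times in dog 4. The upper regulator of the pair was thus at its highest in the culture where the lower was at its lowest. With 1 culture per dog this difference has no replicate check. The marker sums of dog 4 differed as well. Its pericyte sum of 949 CPM was the highest, with 668 CPM from NOTCH3, whereas CSPG4 was at 262 CPM there against 292 in dog 2. Its stromal sum was the lowest, as were COL1A1, COL1A2, COL3A1, PDGFRA and PDGFRB, while LUM and DCN were highest in dog 4. The sum of mature adipocyte markers was highest there (20.5 against 7.76 to 12.1 CPM), mainly from LIPE (9.90), LEP (4.95) and PLIN4 (4.82). PLIN1 was at 0.80 CPM in dog 4 against 1.51 in dog 3, and GPD1, CIDEA and CIDEC had 0 reads in dog 4. The mesothelial markers were at 0 there. The part of these markers in the result was not tested.

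**Figure D2:**
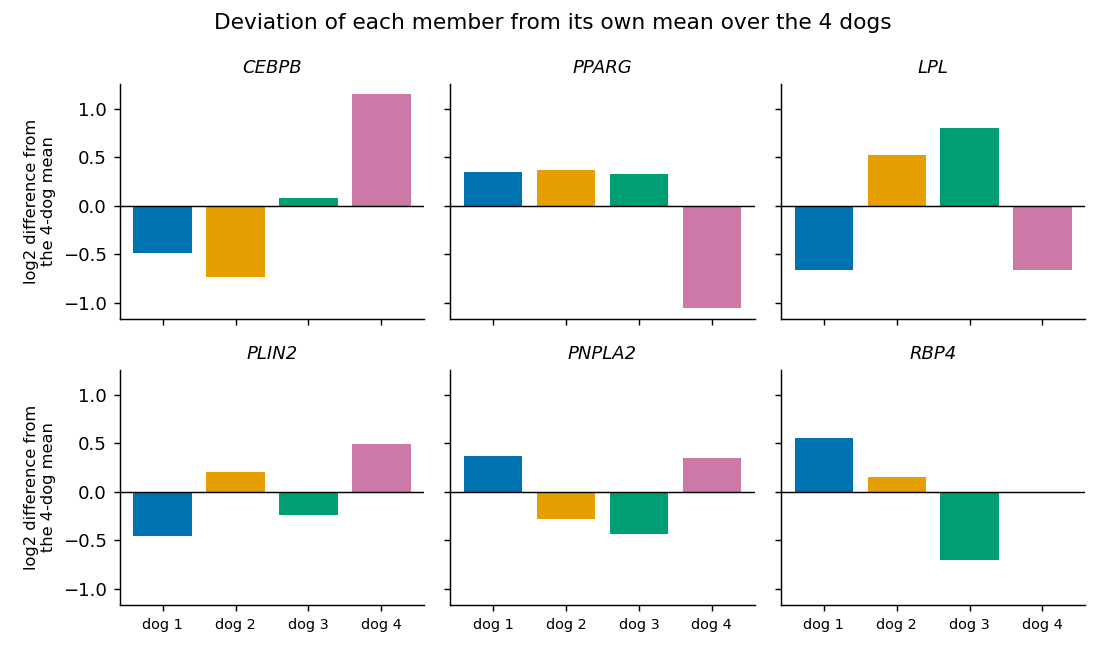
Deposited log2 value of each of the 6 measured genes in each dog minus the mean of that gene over the 4 dogs, 1 bar per dog. In dog 4 the bar of PPARG points down and that of CEBPB up, while PNPLA2 and RBP4 stay nearer to 0 there. For LPL, dogs 1 and 4 are at 0 reads.

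The retinoid X receptor partners of PPARγ were called above, a call lost under a stricter reference, and KLF15, EBF2, PPARGC1A and PPARA were below. All 28 listed transcription factors and coregulators were detected. Of these, 14 were above, 4 below and 10 neither, against 33.3% above and 35.8% below over all tested genes. The median level of the list was 1.37, against -0.02 over all tested genes. The dimer partner RXRA had a level of 1.84 ± 0.08, with 797, 600, 539 and 263 reads, and dog 4 did not stand out. RXRB stood at 1.63 ± 0.25, with dog 1 lowest at 1.26. It was not above without dog 2 (1.34), where the median was also taken anew. The glucocorticoid receptor NR3C1 (4.56 ± 0.19), through which dexamethasone acts in inducing cocktails, the lipogenic factor SREBF1 (4.12 ± 0.26) and the mediator subunit MED1 (3.98 ± 0.10) were highest. The early Krüppel-like factor KLF4 was above at 2.63 ± 0.27, whereas KLF5 (-0.72 ± 0.52) was neither and KLF15, a factor of later stages, was below at -2.17 ± 0.46. In dog 4 SREBF1 and KLF4 were lowest, at 3.74 and 2.23. The precursor factors ZNF423 (0.75 ± 0.59) and EBF1 (-0.35 ± 0.49) were neither. The genes below were KLF15, EBF2 (-2.91 ± 1.03), the coactivator PPARGC1A (-3.11 ± 0.62) and PPARA (-2.90 ± 1.22). PPARA had 37 and 28 reads in dogs 1 and 2 and 0 in dogs 3 and 4. PPARD, the other relative of PPARG, was above at 1.67 ± 0.15. With the median taken over genes with reads in all 4 libraries, RXRA (1.02), RXRB (0.80) and PPARD (0.85) were not above and KLF5 (-1.54) was below, and at a distance of 2 none of these 3 receptors was above.

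Among genes that restrain adipogenesis, the Wnt effector CTNNB1 was above the median gene and the preadipocyte marker DLK1 was below. Of 28 listed, 25 were measured, 12 were above, 4 below and 9 neither, with a median level of 1.22. The shares over all tested genes were 33.3% above and 35.8% below. CTNNB1 (5.98 ± 0.20), NCOR1 (4.62 ± 0.22), a corepressor that keeps unliganded nuclear receptors silent, and INHBA (4.39 ± 1.17), which encodes the subunit of activin A, were highest. CEBPG, a C/EBP relative that dimerizes with other members without activating on its own, was above at 1.84 ± 0.14, but not with the median over genes with reads in all 4 libraries (1.02). DDIT3, another inhibitory C/EBP relative induced by stress, was neither at 0.49 ± 0.37. DLK1 (-3.66 ± 0.36) and the Wnt ligand WNT10B (-3.51 ± 0.52) were below, with at most 4 reads in any dog. SOX9 (-1.75 ± 0.74) and GATA3 (-2.0 ± 0.55) were the other 2 below. Without dog 3, 2 of the list were below.

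**Figure D3:**
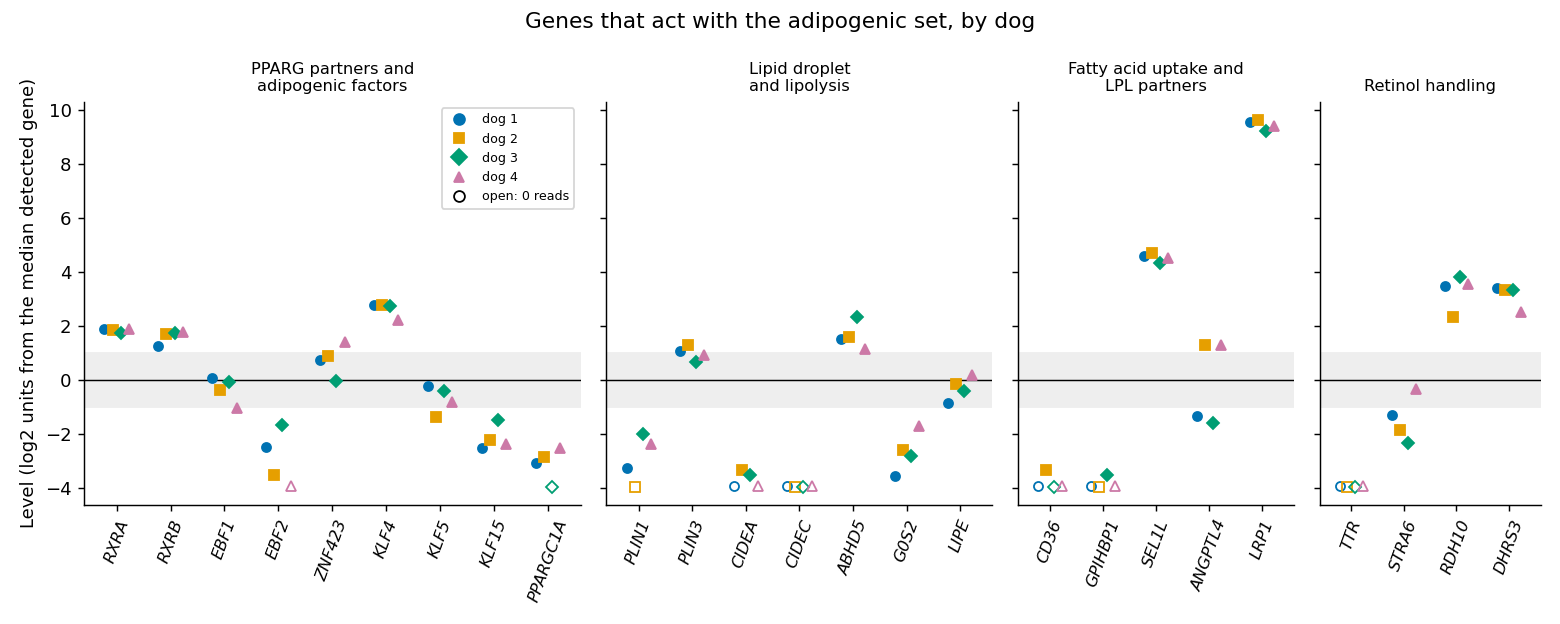
Level of selected genes that work with the set, in log2 units from the median detected gene, 1 symbol per dog and open where a dog had 0 reads. The grey band is the distance of 1 that the test used. RXRA, SEL1L and DHRS3 lie above it, while CIDEC and TTR lie at the floor in all 4 dogs.

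The lipase gene LPL, whose enzyme releases fatty acids from circulating lipoproteins, was near the limit of detection. It had 0, 8, 12 and 0 reads in dogs 1 to 4. That is 0.492 CPM in dog 2 (95% Poisson interval 0.213 to 0.97) and 0.789 in dog 3 (0.408 to 1.38). A count of 0 allows up to 0.134 CPM in dog 1 and 0.401 CPM in dog 4, limits set at 3 reads that cover counting error only. LPL passed the filter only through dogs 2 and 3. Its level of -3.29 ± 0.76 was below (limma, Benjamini-Hochberg adjusted p = 3.96e-05, under -1 in 4 of 4 dogs), and because 2 libraries sit at the value of 0 reads, its distance from the median is bounded by that floor. Without dog 2 or dog 3 it was no longer detected and not tested.

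Of the genes that work with LPL, the folding factor SEL1L was above, and the endothelial anchor GPIHBP1 was nearly absent. Of 23 listed genes of fatty acid uptake and lipase handling, 22 were measured, 11 were above, 2 below, 6 neither and 3 not detected. The shares over all tested genes were 33.3% above and 35.8% below. SEL1L, part of the quality control that lets the lipase fold in the endoplasmic reticulum, was above at 4.55 ± 0.15. The lipoprotein receptor LRP1 (9.47 ± 0.17) and its ligand APOE (3.45 ± 0.69) were the other highest. GPIHBP1, which anchors the lipase to capillary endothelium, had 1 read in dog 3 and none in the others. The fatty acid translocase CD36, a PPARγ target, had 2 reads in dog 2 alone. ANGPTL4, an inhibitor of the lipase and also a PPARγ target, had 61, 403, 36 and 172 reads. Dogs 2 and 4 were high and dogs 1 and 3 low, and its level of -0.09 ± 1.60 was neither and had no steady sign, being 0.07 without dog 1 and 0.24 without dog 3. ANGPTL8 (-2.72 ± 0.99) and APOC2 (-3.59 ± 0.46), which encodes the activator of the lipase, were below. APOC2 had 2 reads each in dogs 1 and 4, and with either dog left out it was not tested, so that 1 of the list was below.

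PLIN2, which codes for the coat protein of small lipid droplets found in most cell types, was above the median in every dog. It had 1077, 1337, 949 and 696 reads in dogs 1 to 4, or 48.1, 82.3, 62.4 and 93.1 CPM. Dogs 4 and 2 were higher than dogs 3 and 1, with 1.95 times as many normalized reads in the highest as in the lowest. The level was 2.77 ± 0.43 (limma, Benjamini-Hochberg adjusted p = 3.05e-06, above 1 in 4 of 4 dogs).

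PNPLA2 encodes adipose triglyceride lipase, which takes the first fatty acid off stored triglyceride. Its reads numbered 838, 409, 353 and 275, or 37.4, 25.2, 23.2 and 36.8 CPM. Dogs 1 and 4 had nearly equal values, above those of dogs 2 and 3. The level of 1.60 ± 0.43 was above (limma, Benjamini-Hochberg adjusted p = 0.00506, above 1 in 4 of 4 dogs). This call was lost without dog 1 (1.22), dog 2 (1.44) or dog 4 (1.24), and with the median over genes with reads in all 4 libraries (0.77). Leaving out a dog also lowered the levels through the median taken anew, so these losses do not rest on single dogs alone. Dog 2 itself lay under the mean, at 1.30. PLIN2 held 1.29 times the normalized reads of PNPLA2 in dog 1 and 3.27, 2.69 and 2.53 times in dogs 2 to 4.

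Among other genes of lipid droplets and triglyceride synthesis, the caveolar genes and GPAM were above, while PLIN1 and CIDEC, known from the large droplets of fat cells, were below or not detected. Of 27 listed, 24 were measured, 8 were above, 7 below, 7 neither and 2 not detected, with a median level over detected genes of 0.58. Over all tested genes 33.3% were above and 35.8% below, so the count above was near that share. The caveolar genes CAVIN1 (5.54 ± 0.30, dog 2 lowest at 5.09) and CAV1 (4.33 ± 0.48) and the acyltransferase GPAM (3.61 ± 0.43) were highest. ABHD5, the coactivator of the PNPLA2 lipase, was above at 1.65 ± 0.51, but not without dog 1 (1.44), dog 2 (1.41) or dog 3 (1.24), nor with the median over genes with reads in all 4 libraries (0.82). G0S2, its inhibitor, was below at -2.67 ± 0.77, with 1, 11, 7 and 14 reads. Hormone-sensitive lipase (LIPE), which acts after PNPLA2, was neither at -0.31 ± 0.44, and the ubiquitous droplet coat gene PLIN3 was neither at 0.98 ± 0.27. PLIN1, the coat gene of adipocyte droplets, had 3, 0, 23 and 6 reads and was below at -2.92 ± 0.88. CIDEA (-3.70 ± 0.30) and FITM1 (-3.57 ± 0.53) were below as well, with at most 3 reads in any dog. CIDEC, which fuses droplets in white fat cells, had 0 reads in all dogs, which over the 61335851 reads of the 4 libraries allows up to 0.0489 CPM.

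**Figure D4:**
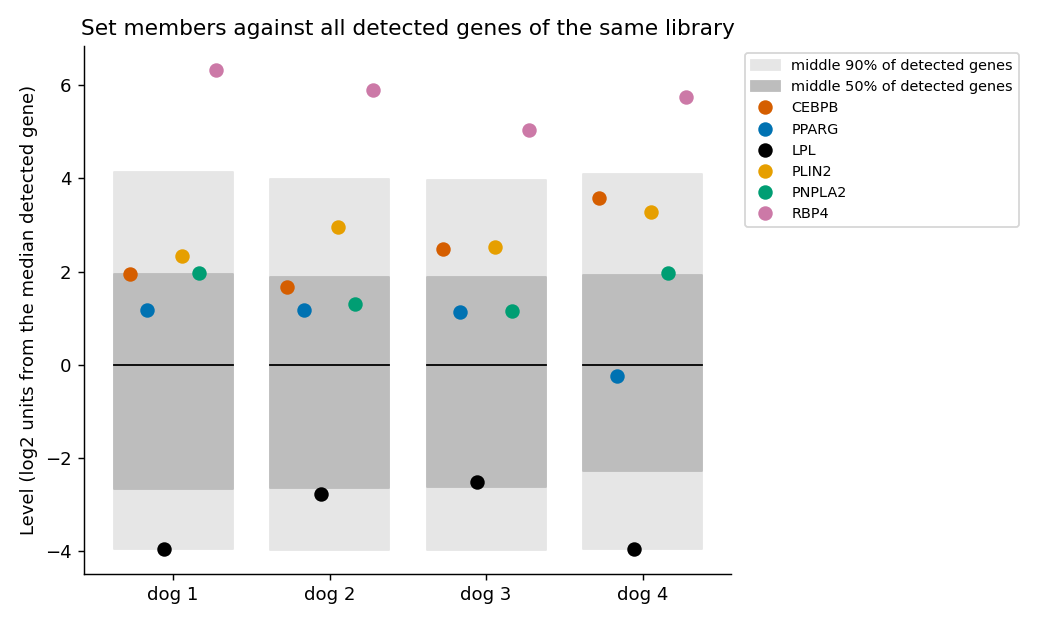
Levels of the 6 measured genes in each dog, in log2 units from the median detected gene of that library. The dark and light bands hold the middle 50% and the middle 90% of the detected genes. RBP4 lies above the light band in each dog and PPARG drops to -0.24 in dog 4.

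RBP4, the carrier of retinol in blood and an adipokine of fat tissue, was among the abundant transcripts of these cells. It had 17676, 10368, 5562 and 3943 reads in dogs 1 to 4, or 789, 638, 366 and 528 CPM. Dog 1 was highest and dog 3 lowest, with 2.39 times as many normalized reads in dog 1. Its level was 5.76 ± 0.53 (limma, Benjamini-Hochberg adjusted p = 1.25e-08, above 1 in 4 of 4 dogs). Of the detected genes, 99.4%, 99.2%, 98.2% and 99.0% had lower values than RBP4 in dogs 1 to 4, without correction for length. RBP4 thus took most of the reads of the set, whose sum was 932, 802, 536 and 780 CPM.

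Of the genes whose proteins bind RBP4, TTR was not detected, and the call of STRA6 depended on the setting. Of 20 listed genes of retinol transport and retinoic acid signalling, 19 were measured, 5 were above, 3 below, 6 neither and 5 not detected. Over all tested genes 33.3% were above and 35.8% below, so the count above was near that share. The RBP4 receptor STRA6 had 62, 28, 15 and 48 reads and was neither at -1.48 ± 0.86. It was below without dog 4 (-2.08), with the median over genes with reads in all 4 libraries (-2.30, limma adjusted p = 0.00289) and at a distance of 0.5 (limma adjusted p = 0.00982). Transthyretin (TTR), which binds RBP4 in blood, had 0 reads in all dogs. The 5 genes above were the retinol dehydrogenase RDH10 (3.30 ± 0.65), which makes retinal for retinoic acid, the retinal reductase DHRS3 (3.15 ± 0.43, dog 4 lowest at 2.51), RDH11 (2.34 ± 0.22) and the receptors RARA (2.12 ± 0.28) and RARG (1.94 ± 0.47), of which RARG was not above with the other median (1.11). RBP5 (-3.66 ± 0.36), RBP7 (-3.64 ± 0.37) and LRAT (-3.26 ± 0.92), which esterifies retinol for storage, were below. RBP5 and RBP7 had at most 2 reads in any dog and LRAT had 5, 0, 23 and 0. Their distances from the median are bounded by the floor of 0 reads.

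Among other adipokines and their receptors, both adiponectin receptors were above and leptin was below. Of 19 listed genes, 15 were measured, 5 were above, 4 below, 4 neither and 2 not detected. Those not detected were RETN and ZBTB16, of which ZBTB16 encodes a transcription factor and not an adipokine or receptor. Over all tested genes 33.3% were above and 35.8% below, so the count above was near that share. The adiponectin receptor ADIPOR1 (3.90 ± 0.17), C1QTNF6 (3.24 ± 0.09), a relative of adiponectin, and NAMPT (2.90 ± 0.12), also called visfatin, were highest, METRNL (2.77 ± 0.32) followed, and ADIPOR2 was above at 1.78 ± 0.15. With the median over genes with reads in all 4 libraries ADIPOR2 (0.96) was not above. Leptin (LEP) had 0, 1, 4 and 37 reads and was below at -2.81 ± 1.47, with dog 4 highest although its library was the smallest. AGT (-3.49 ± 0.56), SFRP5 (-1.84 ± 0.61) and the chemerin receptor CMKLR1 (-2.25 ± 0.68) were the other 3 below. AGT had 4, 7, 0 and 0 reads. At a distance of 2, the calls of ADIPOR2 (limma adjusted p = 1.0) and LEP (0.128) were lost.

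**Figure D5:**
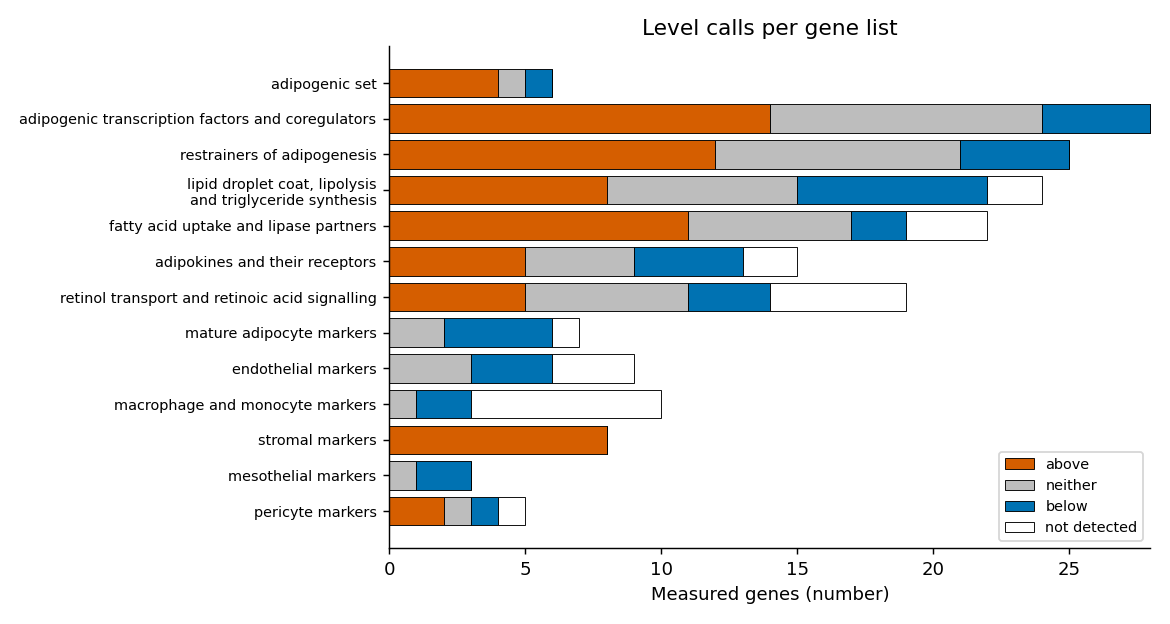
Number of measured genes in each list that were above, neither, below or not detected, by the level test against the median detected gene. Stromal markers were above in 8 of 8 cases, and no marker of mature adipocytes, endothelium, macrophages or mesothelium was above.

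The spread between dogs was compared with that of all tested genes and, in a test of variance, with that of genes of similar level. For genes of their level limma's trend gave SDs of 0.26 for CEBPB, 0.52 for LPL and 0.33 for PPARG. It gave 0.29 for RBP4, 0.28 for PNPLA2 and 0.25 for PLIN2. The SD of the level was 0.84 for CEBPB, 0.76 for LPL, 0.69 for PPARG, 0.53 for RBP4 and 0.43 for both PNPLA2 and PLIN2, against a median of 0.36 over all tested genes. An SD above that of CEBPB was found in 6.81% of tested genes and above that of PPARG in 13.0%. None of the 6 genes passed the test of variance against limma's trend (Benjamini-Hochberg over 17200 genes, 0% called), and 1 of them, CEBPB, had an unadjusted p under 0.05 (0.00718, adjusted 0.482), against 5.2% of all tested genes. For PPARG the unadjusted p was 0.0542.

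The genes with the pattern nearest to PPARG over the 4 dogs were ACOT13, a thioesterase gene, CCND2, a D-type cyclin gene, and SMCHD1, a chromatin factor gene, at Euclidean distances of 0.05, 0.06 and 0.13 between dog-centred log2 values. For comparison, the dog-centred values of PPARG itself lay 1.22 from a flat pattern. With 4 dogs many genes can share a pattern: 220 of 9589 named genes with at least 20 reads in every dog, or 2.29%, lay within 0.5 of PPARG. For CEBPB the nearest were POLQ, ZNF219 and CENATAC, at 0.08, 0.19 and 0.19, with 58 genes (0.60%) within 0.5. For LPL they were PPP1R15A, TGFB3 and SESN2, at 0.19, 0.20 and 0.22, with 27 genes (0.28%) within 0.5. The pattern of LPL rests on at most 12 reads per dog.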

How the data were processed

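Total RNA of 4 canine adipose MSC cultures was sequenced from stranded libraries made with 10 ng of RNA. The tools named in the submitters' processing notes are STAR 2.7.11a, Trimmomatic 0.39, FastQC 0.12.1 and DESeq2, with the build CanFam3.1. How reads were counted, with which strand setting and annotation, is not given in the sources used here. The deposited table is titled by the authors as counts normalized with a variance-stabilizing transformation, so its values are on a log2 scale. No per-sample column was left unused. None of the 6 genes overlaps another gene in the RefSeq table of UU_Cfam_GSD_1.0, which served for names and neighbourhood only.

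Taking the lowest value as 0 reads, the transformation was inverted. All values came out whole within 0.01 reads, with totals of 22411268, 16246965, 15203607 and 7474011 reads in dogs 1 to 4. Normalized reads are reads divided by size factors scaled to a geometric mean of 1 (1.51, 1.17, 1.13 and 0.499). The tests ran on the deposited log2 values with an intercept as the one coefficient and a trended prior (limma 3.58.1 in R 4.3.3). The variability test set a gene's variance over the prior variance as an F test. The labels give each sample as a separate primary cell line, so p-values use the spread between these cultures as error. On simulated data of 17017 genes, 100% of 50 genes at levels of -2.5, -2, 2 and 3 each were called. Of 200 genes at level 0, 0% were. Before counting noise, these genes were given a smaller SD between dogs than any gene of the set had. The variability test recovered 52% of 50 genes at an SD of 1.5 and 80% of 50 at 2.5. The genes of the set had SDs of 0.43 to 0.84, so recovery at their spread was not simulated.

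The genes of the set and the lists were chosen with earlier results of these data known. Named genes were the set, the 3 highest and 2 lowest detected genes of each pathway list, further genes fixed by function (CFD and FABP5 among them were not analysed here), and the 3 nearest patterns. PPARA, PPARD, RXRB, SOX9, GATA3, WNT5A, METRNL, SFRP5, CMKLR1, RARA, RARG, LRAT, ADIPOR2, CDH13 and FABP3 were chosen after their values were seen. The planned order of the genes per transcript length was not run, since only genomic spans of another build were at hand. Some genes of the lists are not reported here and enter none of the list counts. Alternatives covered the reference, distance, normalization, scale, filter, prior, depth and each dog left out.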

Additional observations from a re-analysis of the deposited data

Results flagged for a closer look

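In groups of 4, 1 library was taken to stand apart where its distance to the next one, as a share of the whole range, passed Dixon's 95% limit, which chance gives in about 1 of 20 genes and which held for 5.36% of the 17200 detected genes. Of 66 named genes examined, 7 did so. Some of the 66 were chosen after their values were seen, RXRB and WNT5A of the 7 among them. The count is therefore no test against the share over all detected genes. PPARG had the largest ratio, 0.970, with a level of -0.24 in dog 4 against 1.12 to 1.17 in the others. In dog 4 the levels of SREBF1 (ratio 0.845, 3.74 against 4.20 to 4.28), KLF4 (0.899, 2.23 against 2.73 to 2.78) and DHRS3 (0.899, 2.51 against 3.33 to 3.42) were also lowest. WNT5A, a Wnt ligand from the list of restrainers, was highest there (0.887), with 1465 normalized reads against 59.1 to 87.6 in the other dogs. CAVIN1 was lowest in dog 2 (0.946, 5.09 against 5.67 to 5.71) and RXRB in dog 1 (0.840, 1.26 against 1.71 to 1.79).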

How the results depend on the processing

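CEBPB, PLIN2 and RBP4 were called above under each alternative, except CEBPB at a distance of 2 (adjusted p = 0.15 by limma), where 2 genes of the set were above. With any 1 dog left out, 3 to 4 genes of the set were above, 0 to 1 below and 0 past the variability test, and 46 to 51 genes of the pathway lists were above and 19 to 21 below, against 55 and 24 with all dogs. These runs used fewer dogs and a median taken anew, which lowered levels, so their lost calls are not due to single dogs alone. The 0 below came without dog 2 or dog 3, when LPL was not tested, and LPL was likewise absent with reads required in all 4 libraries, where 0 genes of the set and 9 of the lists were below. At a distance of 2, 30 list genes were above and 13 below, and among named genes PNPLA2, RXRA, RXRB, PPARD, CEBPG, ABHD5, RARA, RARG and ADIPOR2 lost their call above, and ANGPTL8, CMKLR1, G0S2, GATA3, KLF15, LEP, PPARA, SFRP5 and SOX9 theirs below. Without a filter SFRP5 and SOX9 were not below. At a distance of 0.5, PLIN3 and CDH13 were above and STRA6 below. CDH13 was also above without dog 2 (2.37, limma adjusted p = 0.0182). The reference decides most calls. Taken over genes with reads in all 4 libraries, the reference lowered levels by 0.82 (median shift -0.82), and 36 list genes were above. PPARG then lay at -0.017, ZNF423 at -0.077, DDIT3 at -0.34 and WNT5A at -0.49, and PNPLA2, RXRA, RXRB, PPARD, CEBPG, ABHD5, RARG and ADIPOR2 were not above, while STRA6 and KLF5 were below. Taken over all genes of the table, the reference raised levels by 3.40, so that 97 list genes were above and 0 genes of the set or lists below. Over all 17200 tested genes, 11406 were above and 0 below. This median lay within 1 log2 unit of the value of 0 reads, so no gene could be called below. Changed calls and signs under it follow from that shift. PPARG (4.20), ZNF423 (4.14), DDIT3 (3.88), PLIN3 (4.38), WNT5A (3.73) and CDH13 (5.21) turned from neither to above. Signs then turned for LPL (0.10), LRAT (0.14), PPARGC1A (0.29), PLIN1 (0.48), EBF2 (0.49), PPARA (0.50), LEP (0.58), ANGPTL8 (0.68), G0S2 (0.72), CMKLR1 (1.14), KLF15 (1.23), GATA3 (1.40), SFRP5 (1.55), SOX9 (1.65), STRA6 (1.92), FABP3 (2.39), KLF5 (2.68), EBF1 (3.04), LIPE (3.09) and ANGPTL4 (3.31). Without 1 dog ANGPTL4 ranged from -0.80 to 0.24 and WNT5A from -0.91 (without dog 4) to 0.58. Counts per list moved over 1.5 times with these 2 references, both distances and the filters. One list count each, of genes below, moved as much without dog 1, dog 3 or dog 4. Quantile normalization, the log2 scale with a pseudocount of 1, the prior without a trend and equal depth left each count of the set as it was. The alternatives per kilobase were not run. No paired analysis was possible because the labels give 1 group. Depth limits the genes with few reads, LPL among them.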

Other observations

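CDH13 and FABP3, chosen after their values were seen, and ANGPTL4 differed between dogs by more than CEBPB did, as did 6.81% of tested genes. CDH13, which encodes T-cadherin, a surface receptor that binds adiponectin, had 1077, 79.3, 248 and 2545 normalized reads in dogs 1 to 4, a 32.1-fold range. Dogs 4 and 1 were high and dogs 2 and 3 low. FABP3, a fatty acid binding protein of muscle, had 173, 9.38, 152 and 20.04 normalized reads, so that dogs 1 and 3 were high and dogs 2 and 4 low. ANGPTL4 had the opposite grouping, with 40.5, 344, 31.8 and 345 normalized reads. The variability test gave CDH13 an unadjusted p of 5.92e-05 and an adjusted p of 0.17 (limma prior, Benjamini-Hochberg over 17200 genes), FABP3 an adjusted p of 0.536 and ANGPTL4 an adjusted p of 0.312, so none passed.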
